A study of Mus musculus and Homo sapiens with 34 samples.

Results

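Amino acid transporter genes were followed through spheroids of 3 colorectal carcinoma lines grown with or without SIS ECM, a decellularised extracellular matrix material. The genes were chosen by symbol alone, as every member of the SLC1, SLC3, SLC7, SLC36, SLC38 and SLC43 families of solute carriers. These were 42 mouse and 40 human genes, 82 of the 114320 genes in the count tables of both species, and they shared 42 symbols. A member was counted as expressed in a line when at least 5 of that line's libraries held 10 or more of its counts. This left 19 expressed members in CT26, 21 in MC38 and 25 in HT29, with 28 symbols expressed in at least 1 line and 16 in all 3 lines. All expressed members entered the test of their line, and none reached 10 counts in the libraries of only 1 culture. Slc7a3 in MC38 came closest to the limit, with 10 counts in 4 SIS ECM libraries and 2 cells-alone libraries.

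The groups were CT26 with SIS ECM and CT26 cells alone (6 libraries each), MC38 with SIS ECM and MC38 cells alone (5 each), and HT29 with SIS ECM and HT29 cells alone (6 each). CT26 and MC38 are mouse lines and HT29 is a human line, each an established line. All groups were grown in ultra-low attachment plates for 7 days, in RPMI with L-glutamine and 10% fetal bovine serum, and polyA RNA was taken from 10 pooled spheroids per tube. The study asked how the matrix material changes the transcriptome of the cancer cells.

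Cells import amino acids through carriers with overlapping substrates. SLC1 members carry glutamate or exchange small neutral amino acids such as alanine, serine and glutamine. Many SLC7 members are light chains that reach the surface only when joined to a heavy chain of the SLC3 family, whereas other SLC7 members carry arginine and lysine without a partner. SLC38 members carry glutamine and other small neutral amino acids with sodium, SLC36 members move small amino acids with protons, and SLC43 members include carriers of large neutral amino acids. In tumours these carriers are best known for feeding glutamine, leucine and cystine to growing cells. Several of them are targets of ATF4, the transcription factor that is made when amino acids run short.

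Library totals were 15.8 to 24.2 (in 1e6 counts) in mouse and 25.5 to 37.0 in human. All 7 colorectal epithelial markers were found in HT29, but only 2 of 7 reached 10 counts in a CT26 library and 1 of 7 in an MC38 library, and Epcam, Krt8, Krt19 and Vil1 stayed under 10 counts in every library of both mouse lines. The fibroblast markers, by contrast, reached 10 counts for 5 of 8 genes in CT26 and 6 of 8 in MC38, with summed levels of 426 to 651 CPM (counts per 1e6) in CT26 with SIS ECM and 496 to 744 CPM in CT26 alone. In CT26, 1 of 5 tested fibroblast markers rose with SIS ECM and 0 fell. In MC38 the fibroblast sum was 1470 to 1910 CPM with SIS ECM and 1740 to 1790 CPM in cells alone. There, 2 of 5 tested markers fell and 0 rose. In both mouse lines the libraries numbered 1 to 3 stood apart from those numbered 4 to 6 in both cultures, and the labels do not say what the numbers stand for. Mouse results of the transporters are therefore given within each number range where the ranges change them.

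The promoters of Slc7a11 and Slc1a4 are shown because both hold TGATGNAA, the composite site that ATF4 binds with a C/EBP partner. Windows ran from 250 bases before to 50 bases after the start site, from RefSeq on GRCm38.p6, and 31 of the 42 mouse members had a window. Capitals mark each match to TGATGNAA on either strand.
Slc7a11, chr3:50443564-50443863, minus strand: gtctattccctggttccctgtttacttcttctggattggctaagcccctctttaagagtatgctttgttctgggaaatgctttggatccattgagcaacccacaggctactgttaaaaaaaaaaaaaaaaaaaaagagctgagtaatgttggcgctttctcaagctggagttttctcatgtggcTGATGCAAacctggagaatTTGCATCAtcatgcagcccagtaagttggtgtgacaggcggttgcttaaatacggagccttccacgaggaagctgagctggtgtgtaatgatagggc
Slc1a4, chr11:20332664-20332963, minus strand: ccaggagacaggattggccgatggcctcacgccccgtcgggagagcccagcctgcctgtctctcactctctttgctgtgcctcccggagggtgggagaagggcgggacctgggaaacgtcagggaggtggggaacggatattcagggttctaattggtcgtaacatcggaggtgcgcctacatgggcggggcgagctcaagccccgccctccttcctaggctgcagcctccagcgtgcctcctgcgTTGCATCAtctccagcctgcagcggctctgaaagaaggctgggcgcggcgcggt
Slc7a11 held a pair of matches in opposite orientation, starting at -66 and -47 from the start site, and Slc1a4 held a match starting at -4. Besides these, TGATGNAA was found in the windows of Slc7a7, so 3 of the 31 members had it. Some members had more than 1 window, and TGATGNAA was in 4 of the 42 member windows, against 3.97% of all 32851 windows. TGACNNNGC, the core of the antioxidant response element, was found for 5 members (Slc36a1, Slc38a2, Slc43a1, Slc7a1 and Slc7a6). It was in 6 of the 42 member windows and in 12.4% of all windows. CACGTG, a site read by TFEB and MYC, was found for 7 members, in 7 of the 42 member windows and in 7.15% of all windows. These 7 were Slc1a6, Slc1a7, Slc36a1, Slc38a5, Slc38a7, Slc43a1 and Slc7a14. Only Slc36a1 and Slc38a7 among them, 2 of the 17 expressed mouse members with a window, were expressed. In Slc36a1 a TGACNNNGC match and a CACGTG match shared 2 bases. Both strands were searched for each motif, and a match describes letters in a window, not binding.

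In CT26 spheroids, SIS ECM raised the glutamate transporter gene Slc1a2 about 7-fold from a low level and lowered 4 carriers of neutral amino acids by smaller amounts. Of the 19 expressed members, 1 rose and 4 fell at an adjusted p below 0.05 by edgeR's quasi-likelihood test, a share of 26.3%. Over all 12269 genes tested in CT26 the share was 9.25%, with 6.15% higher and 3.1% lower. The median log2 fold change of the 19 members was -0.17, against 0.0082 over all genes, and 14 of the 19 were below 0. The summed level of the members was 1483 to 1818 CPM with SIS ECM (median 1604) and 1679 to 2214 CPM in cells alone (median 1906). The epithelial markers had a summed level of 11.3 to 22.2 CPM in CT26 with SIS ECM and 6.21 to 10.2 CPM in CT26 alone, and Krt18 rose (log2 fold change 1.11, adjusted p = 0.00253); their part in the transporter results was not tested. In these bulk samples, fewer cells of a kind and less RNA per cell cannot be told apart. With the library number as a block, 9 of the 19 changed, 1 higher and 8 lower, against 18.6% of all genes.

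**Figure D1:**
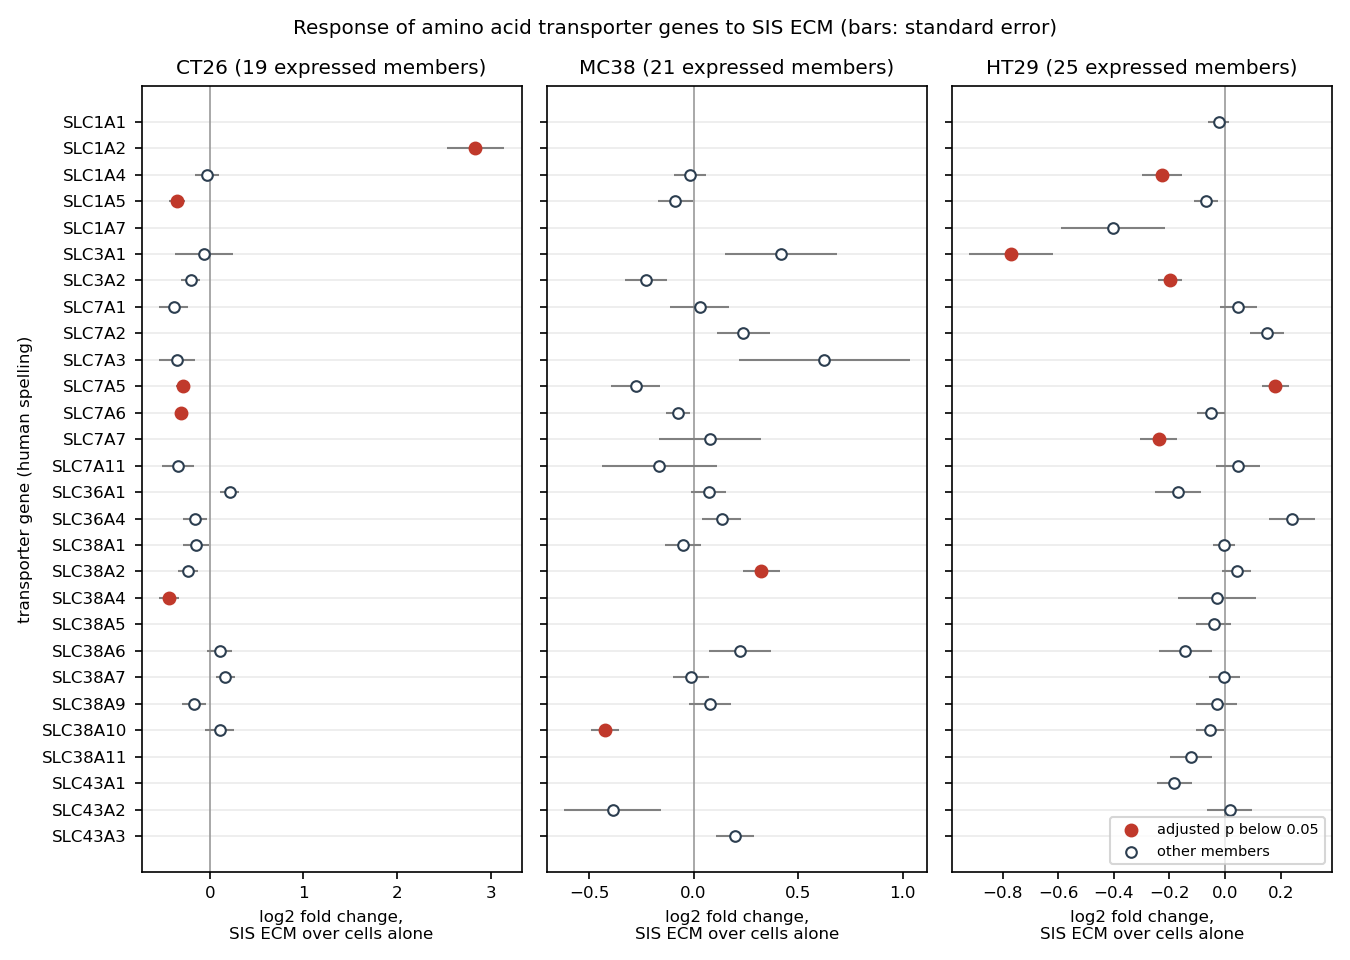
Log2 fold change of each expressed transporter gene, SIS ECM over cells alone, in CT26, MC38 and HT29, with bars of 1 standard error and a separate horizontal scale per panel. Filled points have an adjusted p below 0.05. Slc1a2 in CT26, at 2.84, lies far to the right of all other points, and most filled points in CT26 and HT29 lie left of 0.

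Slc1a2 encodes the glutamate transporter that clears glutamate from synapses in the brain, and lies at 2:102658659-102790784 on the plus strand of mm10. Its level in CT26 with SIS ECM was lowest at 12.8, with a median of 18.6 and a highest value of 28.8 CPM, and in CT26 alone the lowest, median and highest values were 1.38, 2.55 and 5.18 CPM. Every SIS ECM library was above every cells-alone library. Of all genes in CT26, 4.12% were separated in this way and 2.83% in the opposite way, 6.95% in all. Counts ran from 212 to 533 with SIS ECM and from 24 to 102 in cells alone. The log2 fold change was 2.84 ± 0.31 (SE), a 7.15-fold difference (edgeR quasi-likelihood adjusted p = 4.59e-05). Libraries 1 to 3 averaged 25.6 CPM with SIS ECM and 3.64 CPM in cells alone, and libraries 4 to 6 averaged 13.3 CPM with SIS ECM and 1.75 CPM in cells alone. The level was thus lower in libraries 4 to 6 of both cultures, while the log2 fold change was 2.79 within libraries 1 to 3 and 2.93 within libraries 4 to 6. The authors' deposited table gives a log2 fold change of 2.68 for this gene in CT26 (adjusted p = 2.48e-07).

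Slc1a5 encodes ASCT2, an exchanger of glutamine and other neutral amino acids, and lies at 7:16781340-16798274. It ranged over 135, 145 and 170 CPM (lowest, median, highest) in CT26 with SIS ECM and over 166, 193 and 215 CPM in CT26 alone. The groups overlapped, because SIS ECM library 2 was above cells-alone libraries 4 and 5. The log2 fold change was -0.35 ± 0.09 (edgeR quasi-likelihood adjusted p = 0.0202), and -0.44 and -0.25 within libraries 1 to 3 and libraries 4 to 6. Without cells-alone library 2 the adjusted p was 0.0504. Slc1a4, which encodes the related exchanger ASCT1, averaged 36.9 ± 5.53 CPM with SIS ECM and 37.5 ± 6.94 CPM in cells alone (SD, n = 6 each; log2 fold change -0.03). The glutamate transporter genes Slc1a1, Slc1a3, Slc1a6 and Slc1a7 held at most 4 counts in any CT26 library.

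Slc7a5 and Slc7a6 encode light chains that pair with the CD98 heavy chain made by Slc3a2. Slc7a5 makes LAT1, which brings in leucine and other large neutral amino acids, and Slc7a6 makes an exchanger of arginine or lysine for neutral amino acids. Slc7a5 had a lowest value of 67.6, a median of 80.0 and a highest value of 84.6 CPM in CT26 with SIS ECM, and 87.6, 94.4 and 113 CPM in CT26 alone. The groups did not overlap, and the log2 fold change was -0.28 ± 0.08 (edgeR quasi-likelihood adjusted p = 0.0339). This call ended within libraries 4 to 6 (log2 fold change -0.13, adjusted p = 0.0585) and when any of 6 single libraries was left out (cells-alone libraries 1, 2 or 3, or SIS ECM libraries 1, 3 or 5; adjusted p up to 0.0766). In the authors' deposited table Slc7a5 has an adjusted p of 0.129 in CT26. Gm20388, an annotated gene on the opposite strand that spans all of Slc7a5, held up to 952 counts in CT26 against up to 2405 for Slc7a5, and its log2 fold change was -0.08 (adjusted p = 0.642). The kit was stranded, but whether reads were assigned by strand is not stated in the labels or file headers. The overlap is one of gene spans, shared exon bases were not measured, and whether these 2 genes share reads was not tested.

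Slc7a6, at 8:106168857-106198706, ran from 47.7 to 57.1 CPM (median 52.1) in CT26 with SIS ECM and from 59.9 to 69.7 CPM (median 64.5) in CT26 alone, again with no overlap. Its log2 fold change was -0.30 ± 0.06 (edgeR quasi-likelihood adjusted p = 0.007), -0.35 within libraries 1 to 3 and -0.26 within libraries 4 to 6. The heavy chain gene Slc3a2 averaged 106 ± 15.1 CPM with SIS ECM and 122 ± 15.2 CPM in cells alone (SD, n = 6 each), a log2 fold change of -0.20 that did not pass (adjusted p = 0.245), but passed with the block (adjusted p = 0.0336).

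Slc38a4 encodes a sodium-coupled carrier of neutral amino acids that is best known from the liver and is imprinted in the mouse. It lies at 15:96994820-97055956, and had 27.8, 37.8 and 47.7 CPM (lowest, median, highest) in CT26 with SIS ECM against 49.7, 51.3 and 52.1 CPM in CT26 alone. The cells-alone libraries were nearly level, and all SIS ECM libraries were below them, most of all libraries 1 to 3. It differed by a log2 fold change of -0.43 ± 0.11 (edgeR quasi-likelihood adjusted p = 0.0204), which was -0.68 within libraries 1 to 3 and -0.23 within libraries 4 to 6. Slc38a2 encodes SNAT2, a glutamine carrier whose gene is switched on when amino acids are scarce, and was the most abundant member in CT26 per length of exon. It averaged 829.4 ± 88.9 CPM with SIS ECM and 974 ± 147 CPM in cells alone (SD, n = 6 each), with a log2 fold change of -0.23 (adjusted p = 0.2).

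Slc38a2, Slc7a1 and Slc7a11 passed in CT26 with the library number as a block, as Slc3a2 did. Slc7a1, the main carrier of arginine and lysine in most cells, averaged 171 ± 33.7 CPM with SIS ECM and 223 ± 48.3 CPM in cells alone (SD, n = 6 each). Within libraries 1 to 3 its 3 SIS ECM values were 197 to 206 CPM and its cells-alone values 260 to 271 CPM, and within libraries 4 to 6 they were 138 to 142 CPM and 176 to 183 CPM. The cultures thus did not overlap within either range although they did when pooled, and the log2 fold change of -0.38 ± 0.15 had an adjusted p of 0.138 without and 0.000467 with the block (edgeR quasi-likelihood test). Slc38a2 had an adjusted p of 0.0423 and Slc7a11 of 0.021 with the block, with log2 fold changes of -0.23 and -0.32.

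**Figure D2:**
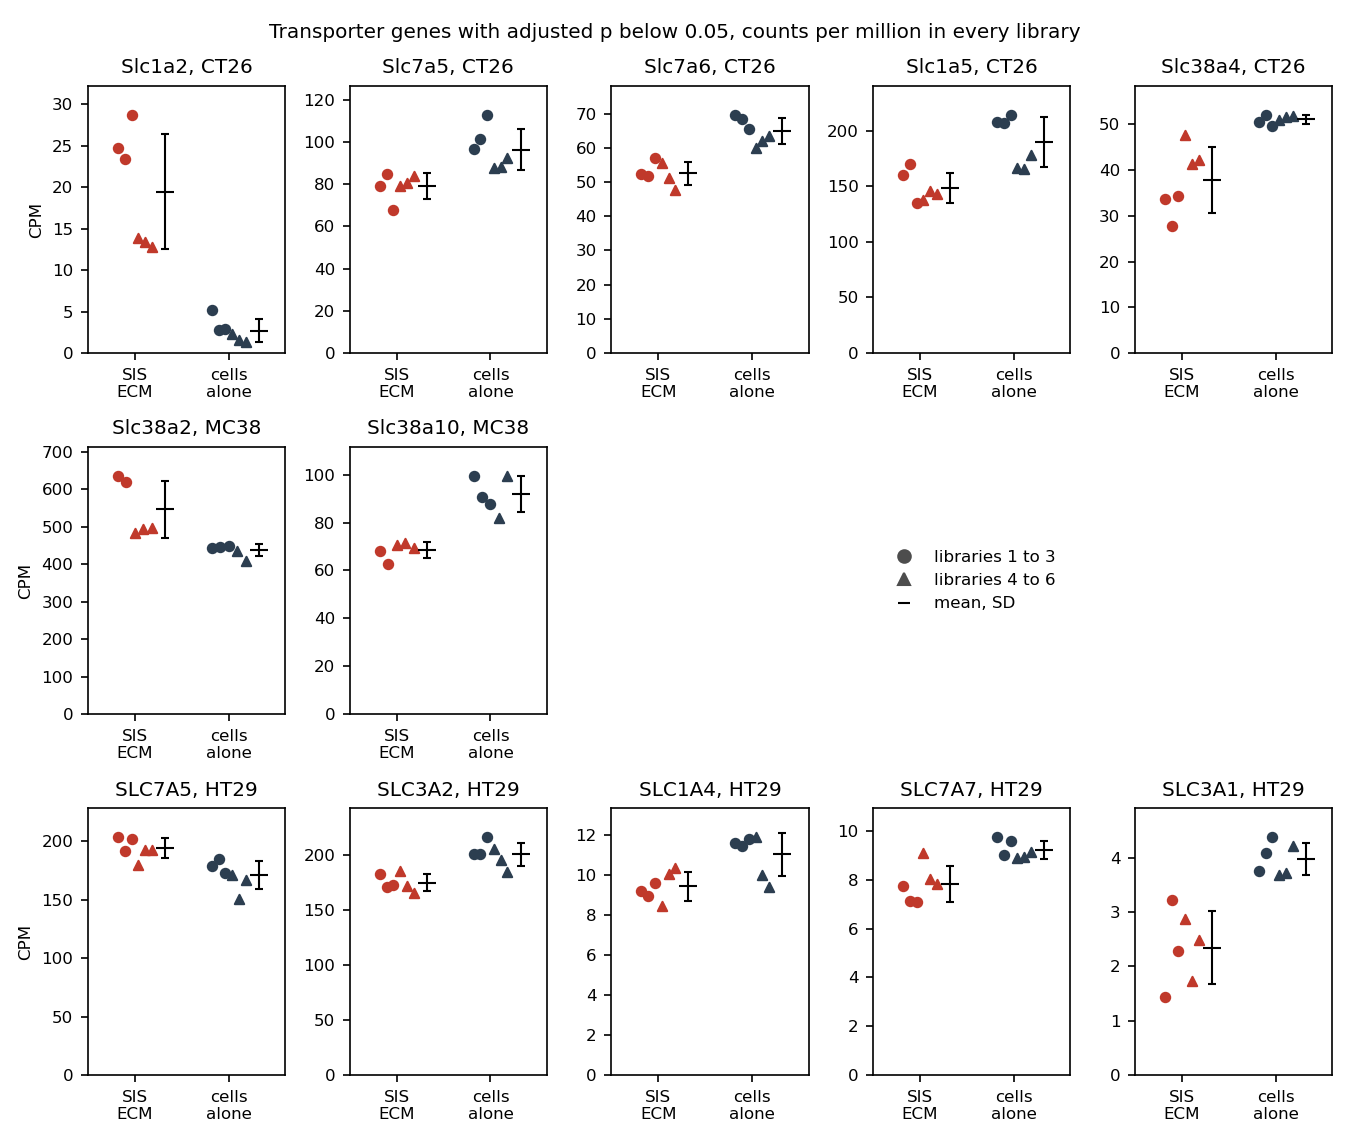
CPM (linear axes from 0) of the members with an adjusted p below 0.05, in every library of CT26, MC38 and HT29, with SIS ECM left of cells alone. Circles are libraries 1 to 3, triangles libraries 4 to 6, and the bar gives the mean and SD. Slc1a2 in CT26 is between 12.8 and 28.8 CPM with SIS ECM and at most 5.18 CPM in cells alone, while the other genes differ by less.

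In MC38, SIS ECM raised Slc38a2 and lowered Slc38a10, and no other member passed. These 2 of 21 members were 9.52%, and over all 13146 genes tested in MC38 the share was 9.17%, with 3.82% higher and 5.36% lower, so the members changed about as often as genes in general. The median log2 fold change was 0.03 over the members and 0.0062 over all genes. The summed level of the members was 1535 to 1904 CPM with SIS ECM and 1481 to 1792 CPM in cells alone. The block, in which cells-alone library 2 and SIS ECM library 6 have no partner and were dropped, called the same 2 genes among 20 members tested, against 9.01% of all genes.

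Slc38a2, at 15:96687392-96699730, had 637, 621, 484, 494 and 498 CPM in MC38 SIS ECM libraries 1, 3, 4, 5 and 6. Its values were 444, 447, 448, 436 and 410 CPM in MC38 cells-alone libraries 1 to 5. The SIS ECM libraries of both ranges were above all cells-alone libraries, and SIS ECM libraries 1 and 3 stood highest. Of all genes in MC38, 4.39% were separated in this way and 5.26% in the opposite way, 9.65% in all. The log2 fold change was 0.32 ± 0.09 (edgeR quasi-likelihood adjusted p = 0.0384), 0.49 within libraries 1 to 3 and 0.21 within libraries 4 to 6. The call ended when cells-alone library 1, 2, 3 or 5 or SIS ECM library 1 or 3 was left out, with adjusted p up to 0.076 and log2 fold changes of 0.26 to 0.36 over all omissions. The authors' deposited table gives this gene an adjusted p of 0.133 in MC38.

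Slc38a10, whose product is known as a carrier of glutamine, glutamate and aspartate, lies at 11:120103960-120151346. It had 68.3, 62.8, 70.5, 71.4 and 69.3 CPM in MC38 SIS ECM libraries 1, 3, 4, 5 and 6, and 99.7, 90.7, 87.7, 82.1 and 99.4 CPM in cells-alone libraries 1 to 5. The groups did not overlap in either range. A log2 fold change of -0.43 ± 0.07 resulted (edgeR quasi-likelihood adjusted p = 0.00257), with -0.51 within libraries 1 to 3 and -0.37 within libraries 4 to 6, and no omission of a library ended the call. In CT26 the same gene averaged 29.3 ± 8.50 CPM with SIS ECM and 27.3 ± 2.703 CPM in cells alone (SD, n = 6 each; log2 fold change 0.11, adjusted p = 0.731). The CT26 ranges differed in sign, with 0.33 within libraries 1 to 3 and -0.18 within libraries 4 to 6, and neither passed (adjusted p = 0.21 and 0.144).

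Within the number ranges more MC38 members passed. Of 20 members tested within libraries 1 to 3, 10 passed (4 higher, 6 lower), against 39.7% of all genes, and 5 of 21 passed within libraries 4 to 6 (3 higher, 2 lower), against 17.1% of all genes. Slc38a2, Slc38a10 and Slc3a2 passed in both ranges, with Slc3a2 at a log2 fold change of -0.17 within libraries 1 to 3 and -0.16 within libraries 4 to 6. Slc1a4 passed in opposite directions, at -0.17 within libraries 1 to 3 and 0.19 within libraries 4 to 6. Slc1a5 had -0.30 (adjusted p = 0.000116) within libraries 1 to 3 and 0.17 (adjusted p = 0.054) within libraries 4 to 6. The MC38 ranges held 2 SIS ECM and 3 cells-alone libraries for numbers 1 to 3, and 3 and 2 for numbers 4 to 6.

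In HT29, SIS ECM lowered both SLC3 heavy chain genes, the exchanger genes SLC7A7 and SLC1A4, and raised SLC7A5. These 5 of 25 members were 20% (1 higher, 4 lower), against 13.5% of all 15207 genes tested in HT29, of which 7.75% were higher and 5.79% lower. The median log2 fold change of the members was -0.04, against -0.0046 over all genes, and 18 of 25 were below 0. Among the changed members, only SLC3A1 differed by more than 0.25 on the log2 scale. The summed level of the members was 2202 to 2292 CPM with SIS ECM and 2219 to 2327 CPM in cells alone.

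SLC3A1 encodes the heavy chain of the kidney and gut carrier of cystine and dibasic amino acids, whose loss causes cystinuria. It had a lowest value of 1.44, a median of 2.39 and a highest value of 3.23 CPM in HT29 with SIS ECM, and 3.68, 3.92 and 4.39 CPM in HT29 alone. All SIS ECM libraries were below all cells-alone libraries, and no other member was separated in either direction. Of all genes in HT29, 2.74% were separated in this way and 3.64% in the opposite way, 6.39% in all. This gave a log2 fold change of -0.77 ± 0.15 (edgeR quasi-likelihood adjusted p = 0.00213). Counts were low, between 45 and 142 per library. Its known light chain partners were nearly silent, with 1 to 9 counts of SLC7A9 and 0 to 2 counts of SLC7A13. PREPL, whose mouse counterpart overlaps the end of Slc3a1 on the opposite strand, had a log2 fold change of -0.05 in HT29 (adjusted p = 0.493).

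SLC3A2, the CD98 heavy chain gene, ran from 166 to 186 CPM (median 173) in HT29 with SIS ECM and from 185 to 217 CPM (median 201) in HT29 alone, with a slight overlap. Its log2 fold change was -0.20 ± 0.04 (edgeR quasi-likelihood adjusted p = 0.00575). SLC7A5, whose LAT1 protein is joined to that heavy chain, moved the other way: it ran from 180 to 204 CPM (median 193) with SIS ECM and from 150 to 185 CPM (median 172) in cells alone. Its log2 fold change was 0.18 ± 0.05 (edgeR quasi-likelihood adjusted p = 0.0203), and the adjusted p was 0.0515 without SIS ECM library 3. The pair of genes therefore changed in opposite directions in HT29, while in CT26 the log2 fold changes of Slc7a5 and Slc3a2 were both negative.

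SLC7A7, the light chain mutated in lysinuric protein intolerance, had 7.09, 7.79 and 9.10 CPM (lowest, median, highest) in HT29 with SIS ECM and 8.90, 9.09 and 9.77 CPM in HT29 alone. A single SIS ECM library, number 4, lay among the cells-alone values. The log2 fold change was -0.24 ± 0.07 (edgeR quasi-likelihood adjusted p = 0.0227), and the call ended without cells-alone library 1 or 3 or SIS ECM library 2 or 3 (adjusted p up to 0.0613). SLC1A4 had 8.43, 9.395 and 10.3 CPM with SIS ECM and 9.38, 11.5 and 11.9 CPM in cells alone, a log2 fold change of -0.23 ± 0.07 (edgeR quasi-likelihood adjusted p = 0.0419). Cells-alone libraries 5 and 6 fell among the SIS ECM values. The SLC1A4 call was the least stable: it ended in 9 of 12 omissions of a library (cells-alone libraries 1, 2, 3 and 4 and SIS ECM libraries 1, 2, 3, 4 and 5; adjusted p up to 0.099). It also ended with no filter on low counts and with the library number as a block (adjusted p = 0.0936 with the block).

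The other 20 HT29 members did not pass. Those nearest the threshold were SLC36A4, which encodes a proton-assisted carrier, with a log2 fold change of 0.24 (adjusted p = 0.0578), and SLC43A1, which encodes a carrier of large neutral amino acids, with -0.18 (adjusted p = 0.0625). The glutamine carriers SLC1A5, SLC38A1 and SLC38A2 differed little in HT29, with log2 fold changes of -0.07, -0.01 and 0.04. The cystine transporter gene SLC7A11 averaged 51.0 ± 4.70 CPM with SIS ECM and 49.4 ± 6.52 CPM in cells alone (SD, n = 6 each). Summed smooth muscle markers in HT29 were 9.78 to 12.9 CPM with SIS ECM and 13.2 to 15.4 CPM in cells alone. Of the 5 markers, 3 reached 10 counts in a library, and CNN1 and MYH11 did not. The 2 tested markers went in opposite directions, with 1 higher and 1 lower with SIS ECM. The part of these marker differences in the transporter results was not tested.

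The responses of the lines were compared directly. Between MC38 and CT26, the interaction test passed for 2 of 23 members (1 higher, 1 lower in MC38), against 8.27% of all 14080 genes (2.87% higher, 5.4% lower). For Slc38a2 the difference of MC38 minus CT26 was 0.55 ± 0.15 (edgeR quasi-likelihood adjusted p = 0.0229), with log2 fold changes of 0.32 in MC38 and -0.23 in CT26. The adjusted p was 0.0509 without MC38 SIS ECM library 1 and stayed below 0.05 in the other 21 omissions. The other was Slc1a2 (-3.66 ± 0.79, adjusted p = 0.00537), which entered the test through CT26 only. MC38 held 1 to 4 counts of it with SIS ECM and 4 to 9 in cells alone, too few to measure a response there, so no difference between the lines is read from it, and HT29 held 0 to 1 counts. With a term for the number ranges, 8 of 23 members differed, against 26.6% of all genes. Slc1a5, Slc36a4, Slc7a1, Slc7a11 and Slc7a6 then had a higher response in MC38 than in CT26, as Slc38a2 did, and Slc38a10 a lower one. With the block Slc7a1 was called too (0.45, adjusted p = 0.00223), against 12.2% of all genes.

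Between HT29 and the mean of both mouse lines, the test passed for 3 of 28 matched symbols (1 higher, 2 lower in HT29), against 5.44% of all 12272 matched genes tested (2.58% higher, 2.86% lower). Only 16 of the 28 were expressed in all 3 lines. Slc1a1, Slc38a5, Slc38a11 and Slc7a3 reached 10 counts in no library of 1 species, so they could not show a difference. The share is therefore not one of members that could all be tested. The response of SLC7A5 was higher in HT29 by 0.45 ± 0.10 (edgeR quasi-likelihood adjusted p = 0.00534), from log2 fold changes of 0.18 in HT29, -0.28 in CT26 and -0.28 in MC38. The MC38 change of Slc7a5 did not pass by itself (adjusted p = 0.155) or with the block (adjusted p = 0.103). It passed with a term for the number ranges (log2 fold change -0.19, adjusted p = 0.0125). Within libraries 1 to 3 the changes were -0.43 in CT26 and -0.29 in MC38 (adjusted p = 0.022 and 0.00033). Within libraries 4 to 6 they were -0.13 and -0.11 (adjusted p = 0.0585 and 0.165). In MC38 the overlapping gene Gm20388 held up to 2486 counts, against up to 3850 for Slc7a5. The response of SLC3A1 was lower in HT29 by 0.97 on the log2 scale (difference -0.97 ± 0.27, adjusted p = 0.0244), from -0.77 in HT29, -0.06 in CT26 and 0.42 in MC38, where each mouse library held only 8 to 34 counts. The difference for SLC3A1 had an adjusted p up to 0.0589 without MC38 SIS ECM library 4 or HT29 SIS ECM library 5. Prepl, which overlaps mouse Slc3a1 on the opposite strand, held up to 1178 counts in CT26 and 1606 in MC38. Whether these 2 mouse genes share reads was not tested. The third was SLC43A3, which encodes a carrier of purine bases rather than amino acids (-2.29 ± 0.66, adjusted p = 0.0313). It entered the test through MC38 only, with at most 7 counts in HT29 and 4 in CT26, so no difference between the lines is read from it. With the block its adjusted p was 0.0574 and Slc36a1 was called instead (-0.35, adjusted p = 0.031), so that 3 of 28 passed again, against 8.31% of all genes. With a term for the number ranges 6 of 28 differed, against 14.6% of all genes, with Slc7a1 higher and Slc1a4 and Slc36a1 lower in HT29 besides these 3.

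Levels of different genes were compared as CPM per kb of exon, which was possible for the mouse lines. In MC38 alone, Slc38a2 was highest at 49.5 ± 1.80 CPM per kb, followed by Slc3a2 at 39.9 ± 4.96 and Slc7a5 at 38.4 ± 6.89, which lay within each other's spread (SD, n = 5). In CT26 alone, Slc38a2 was highest at 110 ± 16.6 CPM per kb, followed by Slc1a5 at 45.5 ± 5.33, Slc3a2 at 34.5 ± 4.31 and Slc7a5 at 25.99 ± 2.60 (SD, n = 6). In CT26 these 4 lay in an order in which each was beyond the spread of the next. Slc1a2 in CT26 was low on this scale even with SIS ECM, at 1.48 ± 0.53 CPM per kb with SIS ECM and 0.206 ± 0.105 CPM per kb in cells alone.

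**Figure D3:**
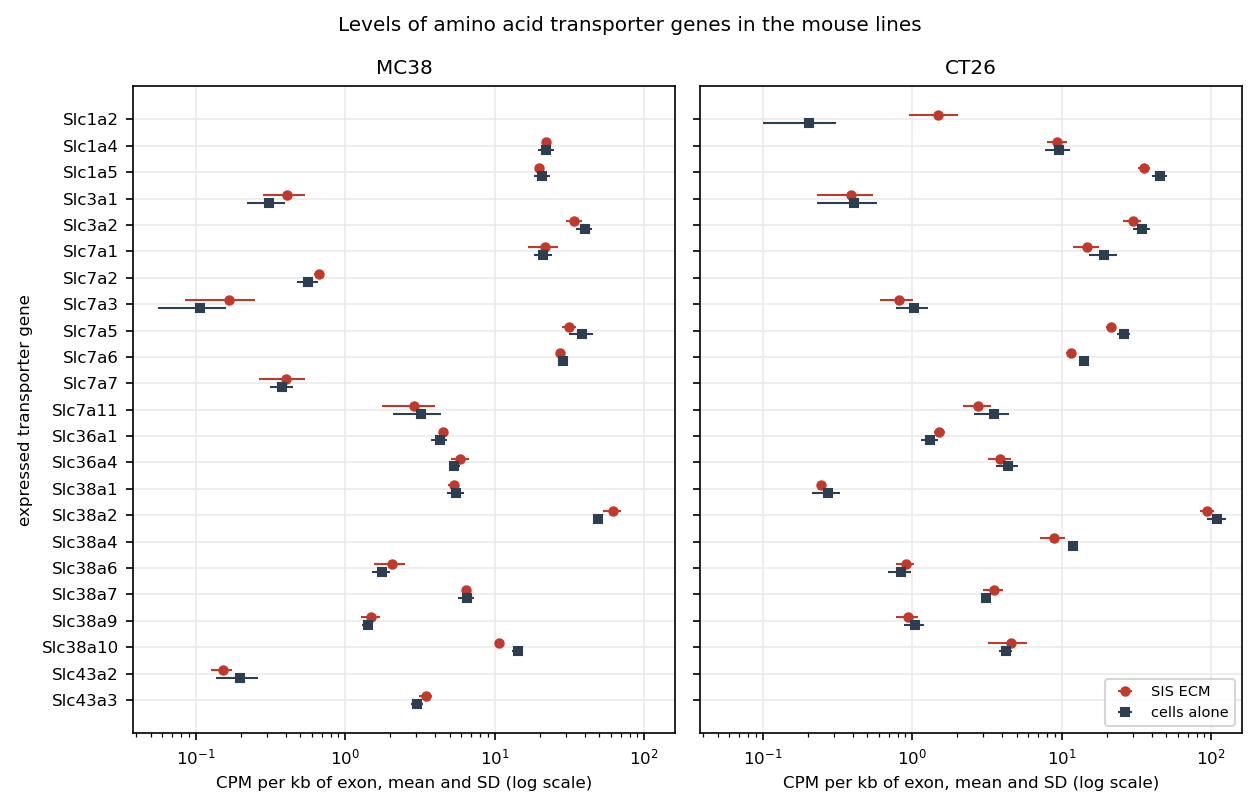
Level of each expressed transporter gene in MC38 and CT26, in CPM per kb of exon on a log axis, as mean and SD over libraries, with SIS ECM above cells alone. Slc38a2 is at the top of the scale in both lines, and Slc38a4 and Slc1a2 have points in CT26 but not in MC38, where they were not expressed.

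Without the matrix, 18 of 23 members differed between MC38 and CT26, 13 higher and 5 lower in MC38, against 78.1% of all 14080 genes (41.3% higher, 36.8% lower). This comparison was added after the data were seen. The glutamine carrier gene Slc38a1 had 94.9 ± 11.9 CPM in MC38 and 4.70 ± 0.99 CPM in CT26 (SD, n = 5 and 6; log2 fold change 4.15 ± 0.12, edgeR quasi-likelihood adjusted p = 8.45e-20). Slc38a2 and Slc1a5 went the other way, and were lower in MC38 by more than 1 on the log2 scale (-1.33, and -1.300 for Slc1a5). Some members counted here were expressed in 1 of these lines and had few or no counts in the other. These were Slc1a2 and Slc38a4 in CT26, and Slc43a2, Slc43a3, Slc7a2 and Slc7a7 in MC38. They entered the test through that line only, so their calls were largely fixed by the filter and add nothing to the share. Slc38a4 had 0 to 3 counts in MC38 and 839 to 1058 in CT26. Slc43a3 had 244 to 362 counts in MC38 and 0 to 1 in CT26, and Slc7a2, an arginine carrier, had 85 to 125 counts in MC38 and 0 in CT26. The CD98 heavy chain gene Slc3a2 did not pass, with a log2 fold change of 0.04 (adjusted p = 0.768), nor did the arginine carrier Slc7a1 (-0.04, adjusted p = 0.816).

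For several mouse members, the number ranges differed by more than the cultures did. Between libraries 4 to 6 and libraries 1 to 3, tested with culture as a term and added after the data were seen, 14 of 19 members differed in CT26 (4 higher and 10 lower in libraries 4 to 6), against 52.7% of all genes (26.5% higher, 26.3% lower). In MC38, 10 of 21 differed (1 higher, 9 lower), against 40.8% of all genes (19.9% higher, 20.9% lower). The members that were lower in both lines were Slc36a4, Slc38a2, Slc38a7, Slc3a2, Slc7a1 and Slc7a11, and Slc38a6 was higher in both.

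Slc7a11 encodes xCT, the light chain that brings in cystine in exchange for glutamate and feeds glutathione synthesis, and its promoter with the pair of TGATGNAA matches is given above. In MC38 SIS ECM libraries 4, 5 and 6 it had 29.3, 28.0 and 28.5 CPM, against 56.2 and 57.6 CPM in SIS ECM libraries 1 and 3. In MC38 cells-alone libraries 4 and 5 it had 27.7 and 27.2 CPM, against 56.2, 54.7 and 58.3 CPM in cells-alone libraries 1 to 3. The level thus differed about 2-fold between the ranges and very little between the cultures. The log2 fold change of libraries 4 to 6 over 1 to 3 was -1.02 ± 0.05 (edgeR quasi-likelihood adjusted p = 3.44e-09) in MC38 and -0.57 ± 0.07 (adjusted p = 1.26e-05) in CT26.

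Slc7a1 was lower in libraries 4 to 6 by 0.48 on the log2 scale in MC38 (-0.48 ± 0.05, edgeR quasi-likelihood adjusted p = 2.34e-06) and by 0.55 in CT26 (-0.55 ± 0.04, adjusted p = 3.28e-08). Slc1a4, whose promoter also holds TGATGNAA, differed by -0.43 ± 0.05 in CT26 (adjusted p = 5.79e-06), and in MC38 by -0.13 (adjusted p = 0.0954). Slc7a7, the third member with TGATGNAA, was tested only in MC38 and had 0.07 (adjusted p = 0.842). Genes of the ATF4 list passed in both directions: in CT26 4 of 22 tested genes were higher and 8 lower in libraries 4 to 6 (54.5%, against 52.7% of all genes), and in MC38 3 of 24 were higher and 5 lower (33.3%, against 40.8%). The part of ATF4 in the differences between the ranges was not tested. Of the cystine and glutathione list, 7 of 11 were lower in CT26 and 3 higher (90.9%, against 52.7% of all genes), and 3 of 11 were lower in MC38 and 2 higher (45.5%, against 40.8%). Gclc, the catalytic subunit of the rate-limiting enzyme of glutathione synthesis, was lower in both, at -0.66 in CT26 and -0.45 in MC38. Gpx4 of the same list was higher in both, at 0.44 in CT26 and 0.38 in MC38, and Glrx was higher in CT26, at 0.75.

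**Figure D4:**
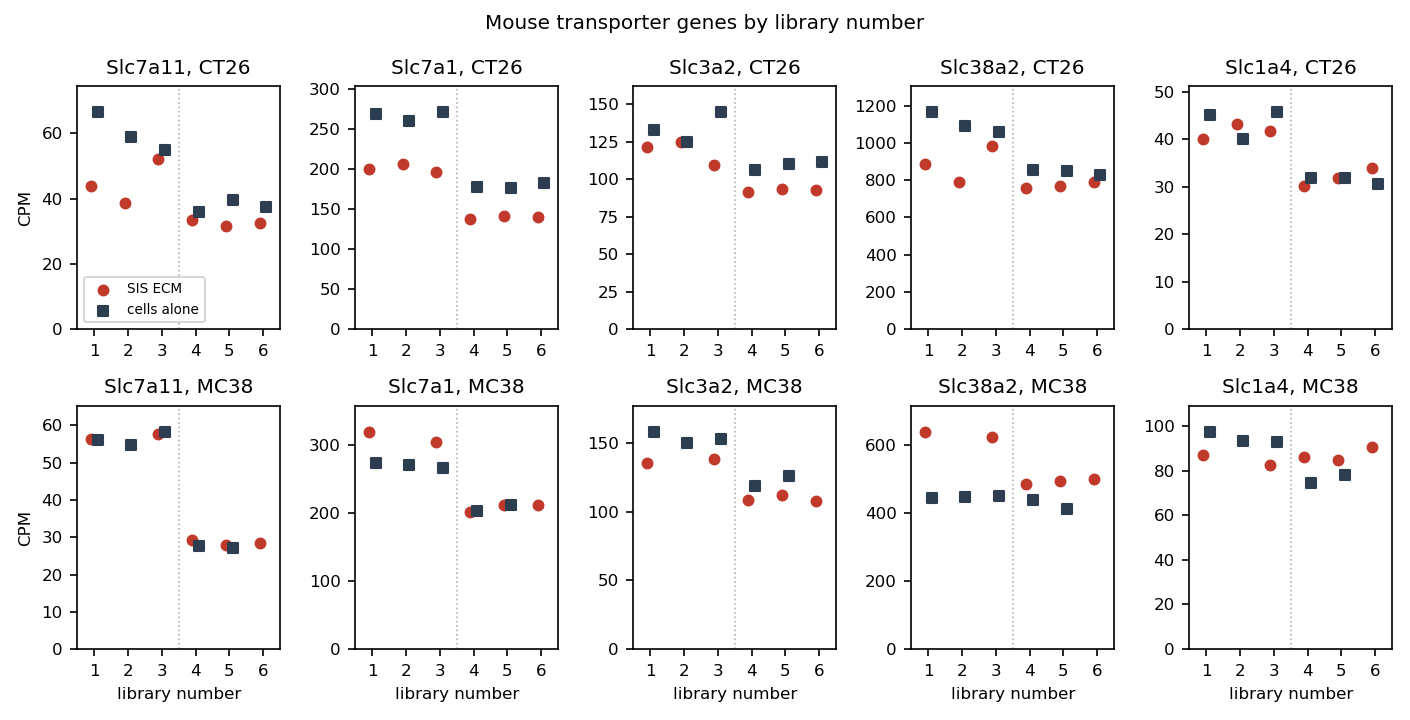
CPM of 5 mouse transporter genes by library number in CT26 (upper row) and MC38 (lower row), from 0 on linear axes, with circles for SIS ECM and squares for cells alone and a dotted line between numbers 3 and 4. Slc7a11 in MC38 is at 54.7 to 58.3 CPM in libraries 1 to 3 and 27.2 to 29.3 CPM in libraries 4 to 6, and the cultures lie together within each range.

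Other genes of amino acid supply and response were read from lists. Of the ATF4 list, which holds genes switched on when amino acids are short, 2 of 22 rose and 1 fell in CT26 (13.6%, against 9.25% of all genes), and 4 of 24 fell in MC38 (16.7%, against 9.17%). In HT29 2 of 23 rose and 8 fell (43.5%, against 13.5%). The lines had median log2 fold changes of -0.07 (CT26), -0.19 (MC38) and -0.13 (HT29) over this list. In CT26, Nupr1, a stress-induced chromatin protein gene, rose (0.51, edgeR quasi-likelihood adjusted p = 0.000216) and Ddit3, the gene of the stress factor CHOP, rose too (0.71, adjusted p = 0.00455; 0.99 within libraries 1 to 3 and 0.41 within libraries 4 to 6), while Psat1 of serine synthesis fell (-0.45, adjusted p = 0.0334; -0.66 and -0.29 within these ranges). In MC38, Trib3, an inhibitor of ATF4, had 23.6 ± 1.86 CPM with SIS ECM and 43.6 ± 5.70 CPM in cells alone (SD, n = 5 each; log2 fold change -0.89, adjusted p = 0.000137). The mTORC1 inhibitor gene Ddit4 fell (-0.84, adjusted p = 0.0121), by far more within libraries 1 to 3 (-1.39) than within libraries 4 to 6 (-0.18), and Atf4 itself fell slightly (-0.19, adjusted p = 0.0405; 0.0937 with the block). In HT29, NUPR1 (-0.69, adjusted p = 0.00404), ALDH18A1 (-0.21, adjusted p = 0.00425), CEBPG (-0.18, adjusted p = 0.00542) and DDIT3 (-0.37, adjusted p = 0.00576) fell. The asparagine synthetase gene ASNS fell too (-0.24, adjusted p = 0.0298). The responses of Nupr1, Ddit4, Trib3 and Ddit3 differed between MC38 and CT26, each lower in MC38, by -0.62, -1.28, -1.25 and -1.03 (adjusted p 0.000237 to 0.00459). Of the list of glutamine and glutamate enzymes, 1 of 14 rose in CT26 (7.14%, against 9.25% of all genes) and 0 of 14 changed in MC38. In HT29 1 of 14 rose and 2 fell (21.4%, against 13.5%).

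Of the genes that report amino acids to mTORC1, 3 of 23 rose in CT26 (13%, against 9.25% of all genes), 3 of 24 rose in MC38 (12.5%, against 9.17%), and 1 of 24 fell in HT29 (4.17%, against 13.5%). Fnip1 and Eif2ak4, which encodes the uncharged-tRNA sensor GCN2, rose in both mouse lines. In MC38 the calls of Fnip1 and Eif2ak4 ended with the block (adjusted p = 0.0635 and 0.061). Fnip1 in MC38 had 0.48 within libraries 1 to 3 and 0.08 within libraries 4 to 6 (adjusted p = 0.368), and Eif2ak4 had 0.13 (adjusted p = 0.0867) and 0.29. In CT26, Fnip1 had an adjusted p of 0.051 within libraries 1 to 3. Flcn, the partner of Fnip1, had 28.9 ± 4.16 CPM with SIS ECM and 18.1 ± 2.10 CPM in cells alone in CT26 (SD, n = 6 each; log2 fold change 0.68, adjusted p = 0.00106; 0.97 within libraries 1 to 3 and 0.38 within libraries 4 to 6). Its response was lower in MC38 by a difference of -0.68 (adjusted p = 0.00675). From the arginine and polyamine list, 1 of 6 rose in CT26 (16.7%, against 9.25% of all genes). In MC38 1 of 8 rose and 2 fell (37.5%, against 9.17%), and in HT29 2 of 8 fell (25%, against 13.5%). Those that fell make arginine: Ass1 and Asl in MC38 (-1.02 and -0.39, adjusted p = 0.00735 and 0.0332), and ASS1 and ASL in HT29 (-0.33 and -0.24, adjusted p = 0.00073 and 0.0025). Ass1 in MC38 had -1.15 within libraries 1 to 3 and -0.65 within libraries 4 to 6. Those that rose were Sat1 in CT26 (0.42, adjusted p = 0.000475) and Sms in MC38 (0.24, adjusted p = 0.0116). Of the branched-chain breakdown list, 2 of 8 fell in CT26 (25%, against 9.25% of all genes), 1 of 8 fell in MC38 (12.5%, against 9.17%) and 1 of 7 rose in HT29 (14.3%, against 13.5%).

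Of transporters of other families, 2 of 11 rose in CT26 (18.2%, against 9.25% of all genes), 1 of 15 rose in MC38 (6.67%, against 9.17%), and 2 of 17 rose and 1 fell in HT29 (17.6%, against 13.5%). SLC6A20, a carrier of proline and other imino acids, had 19.2 ± 1.302 CPM in HT29 with SIS ECM and 11.0 ± 0.86 CPM in HT29 alone (SD, n = 6 each). This was a log2 fold change of 0.80 ± 0.06 (edgeR quasi-likelihood adjusted p = 3.03e-07). The taurine transporter gene SLC6A6 rose there too (0.30, adjusted p = 0.0024). In CT26 the creatine transporter gene Slc6a8 rose (0.49, adjusted p = 0.00322), and Slc17a5, a lysosomal carrier of sialic acid, rose in CT26 and MC38 (0.36 and 0.33, adjusted p = 0.0305 and 0.0408; 0.0504 in CT26 within libraries 1 to 3). In the cystine and glutathione list, 1 of 11 rose in CT26 (9.09%, against 9.25% of all genes) and 1 of 11 in MC38 (9.09%, against 9.17%), about as often as genes in general. In HT29 2 of 13 fell (15.4%, against 13.5%). The CT26 gene was Ggt1, which breaks down extracellular glutathione, with 4.24 ± 1.85 CPM with SIS ECM and 1.51 ± 0.34 CPM in cells alone (SD, n = 6 each). Its log2 fold change was 1.49 (adjusted p = 0.00411), with 1.78 within libraries 1 to 3 and 1.01 within libraries 4 to 6.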

How the data were processed

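PolyA RNA was sequenced from 22 mouse and 12 human libraries with a stranded kit, per the labels' protocols. Per the submitters' processing notes, builds mm10 and hg38 were used, with limma, RSEM 1.3.1, STAR 2.7.0f and cutadapt 1.18, in roles that are not stated. The authors deposited expected counts per gene, not normalised, and these were rounded to whole numbers. The authors also deposited comparison tables with a gene's log2 fold change, t statistic (a score) and p-values. Values from them are named as the authors', and their 34 columns of single samples were left out.

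Each line was tested with edgeR 4.0.16 (R 4.3.3) by the two-sided quasi-likelihood F test, with TMM factors, filterByExpr at a minimum count of 10 and Benjamini-Hochberg adjustment over all genes tested, and genes with an adjusted p below 0.05 were called. Adjusted p-values of genes throughout are from this test. CPM used TMM factors and, for levels per kb, the union exon length of GENCODE M21, in which all 55450 mouse identifiers matched. Human coordinates and lengths were not used here. Differences in response were interaction tests over all mouse libraries, or over all libraries for 16667 symbols matched between species with case ignored. Scripts were tested on simulated data.

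Nothing in the labels says that the libraries of a group were separate cultures, so the p-values reflect only how these libraries varied, which may be technical. Same-numbered libraries of the cultures deviated together in CT26 (correlations 0.271 to 0.609 over 6 pairs) and MC38 (0.208 to 0.414 over 4 pairs), so the number was used as a block there. Libraries of another number in the same range (1 to 3 or 4 to 6) correlated as much (median 0.565 in CT26 and 0.336 in MC38, against 0.462 and 0.353 for the same number). Those of the other range were opposed (median -0.522 and -0.351). Only 1 SIS ECM library in CT26 and 2 in MC38 correlated best with their own number. A pairing by number is thus not shown apart from the range, and calls with the block carry this limit. Alternatives were RLE factors, no filter, limma-voom (limma 3.58.1), DESeq2 1.42.0, the block, a term for the number ranges, each range alone and each library left out. The members, lists and tests were chosen with earlier results of these data known. Genes were named by adjusted p below 0.05, at most 8 members per line and direction and 4 genes per list and line.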

Additional observations from a re-analysis of the deposited data

Results flagged for a closer look

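In 130 groups of libraries, 3 held a library far from the others by Dixon's criterion, which chance gives in about 1 of 20 groups. Slc3a1 was highest in CT26 cells-alone library 6 at 1.73 CPM, with the others between 0.657 and 0.893 CPM. Slc7a5 was lowest in CT26 SIS ECM library 3 at 67.6 CPM, with the others between 79.0 and 84.6 CPM. SLC7A1 was lowest in HT29 SIS ECM library 4 at 220.9 CPM, with the others between 254.6 and 274.6 CPM.

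The interaction test of edgeR, of the response to SIS ECM between lines, passed for 5 genes, of which 3 were expressed in every line compared. Between MC38 and CT26, the difference in log2 fold change was 0.55 for Slc38a2 (adjusted p = 0.0229). Between HT29 and the mean of the mouse lines, it was 0.45 for Slc7a5 (adjusted p = 0.00534) and -0.97 for Slc3a1 (adjusted p = 0.0244). The test also gave -3.66 for Slc1a2 in MC38 against CT26 (adjusted p = 0.00537) and -2.29 for Slc43a3 in HT29 against the mouse lines (adjusted p = 0.0313). Slc1a2 was near 0 counts in MC38, and Slc43a3 in HT29 and CT26, so no response could be measured there and no difference is read from these 2 genes.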

How the results depend on the processing

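With the library number as a replicate block, 2281 genes (18.6%) and 9 of 19 members passed in CT26. With it, 1023 genes (8.31%) and 3 of 28 members differed between HT29 and the mouse lines. The block in HT29, whose same-numbered libraries did not deviate together (-0.143 to 0.073), gave 5 members (12.4% of all genes passed), with SLC43A1 in place of SLC1A4 (adjusted p = 0.0936), and 0 of 6 SIS ECM libraries correlated best with their own number. The block changed no other call of a member within a line besides the 4 gained in CT26. A term for the number ranges gave 3545 genes (28.9%) and 10 of 19 members in CT26, and 3246 genes (24.7%) and 5 of 21 members in MC38. That term gave 3740 genes (26.6%) and 8 members between MC38 and CT26. Between HT29 and the mouse lines it gave 1796 genes (14.6%) and 6 of 28 members. Libraries 1 to 3 alone gave 2484 genes (20%) and 8 of 19 members in CT26, and 5287 genes (39.7%) and 10 members in MC38. Libraries 4 to 6 alone gave 2333 genes (19%) and 7 of 19 members in CT26, and 2318 genes (17.1%) and 5 of 21 members in MC38. The cause of these differences was not tested. RLE factors, limma-voom and DESeq2 kept the counts of members within 1.5 times, as did no filter, under which SLC1A4 no longer passed. With 1 library left out, the counts ran from 792 to 1364 genes and 3 to 5 members in CT26 (3 without cells-alone library 2, which ended the calls of Slc1a5 and Slc7a5), 626 to 1948 genes and 1 to 3 members in MC38 (648, 626, 663 and 1948 genes without cells-alone libraries 1, 2, 3 and 4, 724 and 742 without SIS ECM libraries 4 and 6), and 1445 to 2464 genes and 2 to 6 members in HT29 (3 without cells-alone library 1 or 3, 2 without SIS ECM library 3). Between MC38 and CT26 they ran from 813 to 1727 genes and 1 to 3 members, and between HT29 and the mouse lines from 515 to 802 genes and 2 to 4 members. Members with few counts, such as SLC3A1 in HT29, had the widest errors, and for members near 0 counts no response could be measured at this depth.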
